A study of Mus musculus with 6 samples.

Results

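Cytochrome P450 genes were taken from the gene table of a T3 experiment in mouse small-intestinal organoids by their symbol: Cyp, a family number and a letter, with Cyp51 left out. The rule found 103 of the 27179 genes in the table and used no measured value. Of these, 42 had 10 or more normalized reads in 3 or more of the 6 libraries and were tested, and 61 stayed below that minimum. Organoids are epithelial cultures grown in a gel, here from wild-type (WT) mouse small intestine in Matrigel with Intesticult medium. In 3 libraries the organoids had received 1e-07 M of T3, the active form of thyroid hormone, and in 3 others its vehicle, and RNA was extracted after 17 h and sequenced. Both groups share genotype, tissue source and medium, and the question was which transcripts respond to T3 in this epithelium. Whether each library is a culture or animal of its own is not in the labels. The p-values therefore rest on the spread among these 6 libraries, possibly a technical one.

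Cytochrome P450s are heme enzymes that insert an oxygen atom into lipophilic substrates, using electrons passed on by reductases. Members of the Cyp1, Cyp2 and Cyp3 families handle drugs, toxins and dietary compounds, and several also act on arachidonic acid or steroids. Cyp4 enzymes hydroxylate fatty acids and eicosanoids at the end of the chain, while other families make or degrade steroid hormones, bile acids, vitamin D and retinoic acid. In the small intestine they are best known for the oxidation of swallowed compounds in the absorptive cells, ahead of the liver.

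With T3 the detected P450 genes moved in both directions, often within 1 branch of the family. Of the called members, 4 Cyp3 genes rose and 1 fell, 3 sterol and steroid genes rose and 1 fell, and Cyp4 had 4 of each. The called Cyp2c, Cyp2d and Cyp2j members, 10 in all, fell, and differences between branches were not tested. Of the 42 tested members, 13 rose, 19 fell and 10 did not pass the test (limma on log2(value + 1), Benjamini-Hochberg adjusted p under 0.05 over 13052 genes). The 32 calls are 76.2% of the tested members, beside 44.8% of all genes tested, with 24.0% of all genes higher and 20.8% lower. The 2 groups did not overlap in 33 members, 78.6%, beside 54.9% of all genes. A called change of at least 2-fold was found in 14 members, 5 higher and 9 lower, where 5.55% of all genes tested had one. The median difference was -0.20 on the log2 scale in the members and -0.01 in all genes, and the median absolute difference was 0.81 against 0.19. In bulk RNA, fewer cells of a type and less RNA per cell cannot be told apart.

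Cyp17a1, Cyp3a44, Cyp2c67 and Cyp4a32 met the minimum through 1 group only, so they had to differ to be tested. They remain in the counts above, and no p-values are given for them. Among the other 38 members, 11 rose and 17 fell, 73.7% beside 44.8% of all genes tested. These 38 had 10 called changes of at least 2-fold, and 3 of 4 Cyp3 and 2 of 3 sterol and steroid genes among them rose. Scaling to equal column totals moved the share of rises among all calls from 53.6% to 38.8% over all genes and from 40.6% to 37.5% over the members. The authors' deposited table, adjusted over the authors' own comparison, called 31 of the same 32 members, 13 higher and 18 lower. The exception was Cyp4f39, with an adjusted p of 0.0955 in the authors' deposited table.

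**Figure D1:**
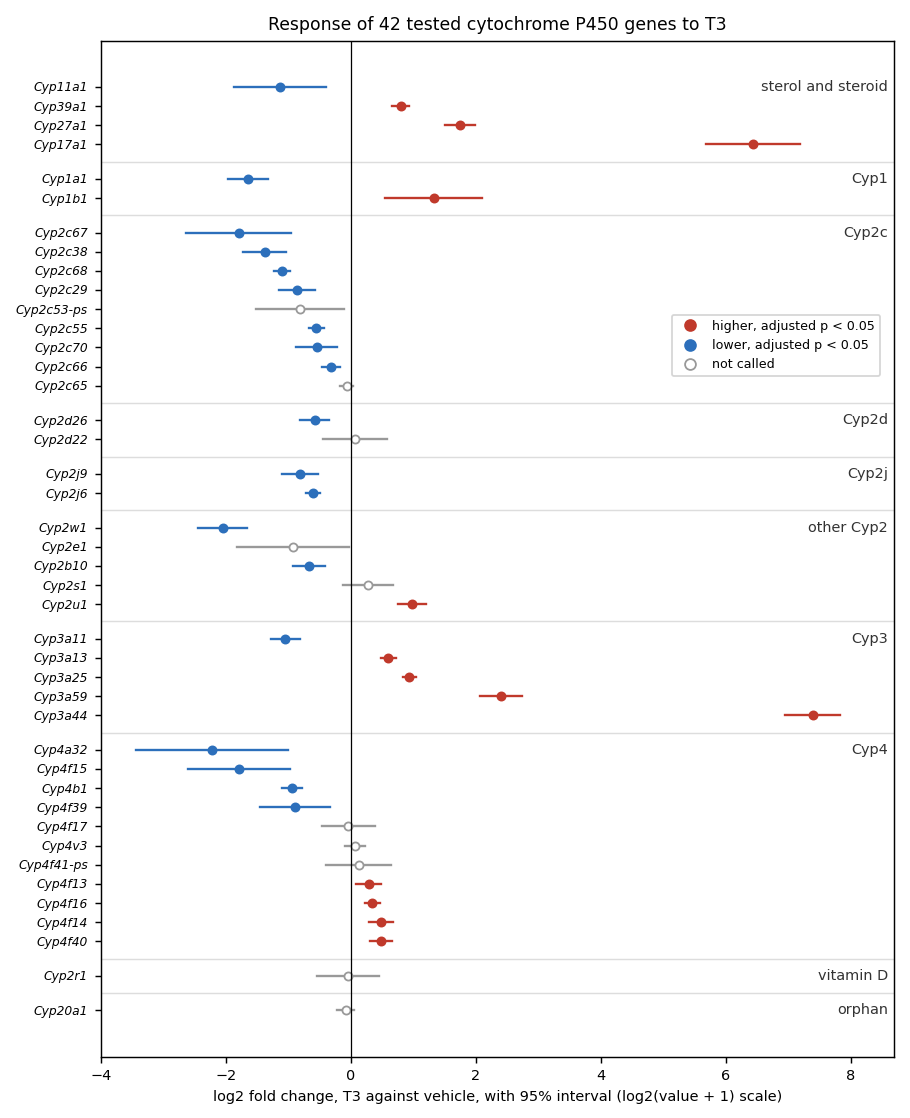
Log2 difference (T3 minus vehicle, on the log2(value + 1) scale) of the 42 tested P450 genes, grouped by role, with 95% confidence intervals from limma and colour for the call. The 5 tested Cyp3 genes stand apart from zero, with Cyp3a11 to the left, and the point of every tested Cyp2c gene lies left of zero, though the interval of Cyp2c65 crosses it.

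Cell type markers moved along with the P450 genes. All 12 enterocyte markers were tested, and 7 rose and 1 fell, with summed values of 81724 to 89258 with vehicle and 129574 to 146780 with T3. Of the 6 Lgr5 stem cell markers 5 fell, with sums of 95514 to 110737 and 66822 to 75545. The part of these shifts in the P450 differences was not tested. For hepatocytes, the cells richest in P450s, 7 of 10 markers had means under 10, Ahsg and Tdo2 were listed at 0 throughout, and Alb was at 22.3 ± 5.77 and 24.3 ± 5.69. The hepatocyte sums, 1999 to 2130 with vehicle and 610 to 736 with T3, were nearly all Ttr, which fell. Of 6 fibroblast markers 5 had means under 10 (sums 236 to 306 and 177 to 265), and of 3 endothelial markers Cdh5 and Kdr were listed at 0 (sums 12 to 12 and 7 to 9). Immune markers summed to 129 to 163 with vehicle and 395 to 414 with T3. That rise was in Itgam, 97.3 ± 15.2 to 349 ± 7.55, while Ptprc reached at most 3 reads.

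Cyp3a enzymes are the main drug oxidases of the gut wall and also hydroxylate steroids and bile acids. With T3, 4 of the 5 tested Cyp3 genes rose, and Cyp3a11, the most abundant of them per kb with vehicle, fell. Of the 9 Cyp3 genes in the table, 8 lie within 768 kb of chromosome 5 (145345270 to 146113285, mm10), and Cyp3a13 lies apart from them at 137892933 to 137921619. From low to high coordinate the order is Cyp3a57, Cyp3a16, Cyp3a41b, Cyp3a41a, Cyp3a44, Cyp3a11, Cyp3a25 and Cyp3a59. The 4 genes at the low end never exceeded 2 normalized reads in a library, so genes listed near 0, genes that rose and 1 that fell lay side by side. Of the 50-base stretches of Cyp3a41a and Cyp3a41b transcripts, 98.6% and 93.5% also occur in other genes. Reads from them could have been lost in counting, so their low values need not mean silence.

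The promoters of Cyp3a44, which rose from near 0, and of neighbours listed near 0 or falling are shown. In sequence the Cyp3a16 and Cyp3a41a windows are close to that of Cyp3a44, and that of Cyp3a11 is less close. Their listed values went apart. Each window runs from 250 bases before to 50 bases after the RefSeq start (GRCm38.p6) and is written on the gene's own strand. Capitals mark AGGTCA or its reverse complement TGACCT, the core element that thyroid hormone receptors and many other nuclear receptors bind. The windows are chr5:145805825-145806124 (minus strand) for Cyp3a44, chr5:145469674-145469973 (minus) for Cyp3a16, chr5:145720087-145720386 (minus) for Cyp3a41a and chr5:145879805-145880104 (minus) for Cyp3a11.
Cyp3a44: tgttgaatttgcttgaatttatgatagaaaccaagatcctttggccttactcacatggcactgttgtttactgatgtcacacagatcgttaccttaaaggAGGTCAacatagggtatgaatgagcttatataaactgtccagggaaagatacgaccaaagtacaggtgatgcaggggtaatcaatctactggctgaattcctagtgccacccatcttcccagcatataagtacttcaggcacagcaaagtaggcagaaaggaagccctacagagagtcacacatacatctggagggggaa
Cyp3a16: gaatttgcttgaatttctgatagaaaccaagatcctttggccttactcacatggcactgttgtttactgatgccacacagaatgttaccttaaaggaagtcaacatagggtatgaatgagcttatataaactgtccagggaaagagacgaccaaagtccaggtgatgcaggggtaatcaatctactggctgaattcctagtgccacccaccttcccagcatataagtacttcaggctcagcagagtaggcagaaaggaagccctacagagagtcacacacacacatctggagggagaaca
Cyp3a41a: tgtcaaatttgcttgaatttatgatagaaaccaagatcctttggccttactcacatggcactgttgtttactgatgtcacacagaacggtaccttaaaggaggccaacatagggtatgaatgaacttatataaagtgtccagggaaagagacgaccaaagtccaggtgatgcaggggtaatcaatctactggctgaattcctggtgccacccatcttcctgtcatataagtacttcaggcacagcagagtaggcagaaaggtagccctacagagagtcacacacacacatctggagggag
Cyp3a11: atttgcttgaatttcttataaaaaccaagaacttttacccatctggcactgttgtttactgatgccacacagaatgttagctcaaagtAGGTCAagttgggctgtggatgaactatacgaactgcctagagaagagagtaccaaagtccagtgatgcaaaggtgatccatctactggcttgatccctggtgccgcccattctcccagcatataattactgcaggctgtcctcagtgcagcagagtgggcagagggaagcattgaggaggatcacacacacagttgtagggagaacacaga
Aligned end to end, the Cyp3a44 window was 93.4% identical to that of Cyp3a16, 93.0% to that of Cyp3a41a and 71.8% to that of Cyp3a11. For comparison, it was 55.9% identical to that of Cyp3a13, outside the cluster. AGGTCA occurs in the Cyp3a44 window 150 bases before the start. The Cyp3a16 window differs there by G102A and the Cyp3a41a window by T104C, counted from 1 at the 5′ end of the Cyp3a44 window with the base of Cyp3a44 first. Cyp3a11, which fell, has the same letters 162 bases before its start.

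A second set of windows belongs to Cyp3a25 and Cyp3a59, which both rose, and to Cyp3a57, their silent relative at the other end of the cluster. They are chr5:146009569-146009868 (minus strand) for Cyp3a25, chr5:146079008-146079307 (plus) for Cyp3a59 and chr5:145345019-145345318 (plus) for Cyp3a57.
Cyp3a25: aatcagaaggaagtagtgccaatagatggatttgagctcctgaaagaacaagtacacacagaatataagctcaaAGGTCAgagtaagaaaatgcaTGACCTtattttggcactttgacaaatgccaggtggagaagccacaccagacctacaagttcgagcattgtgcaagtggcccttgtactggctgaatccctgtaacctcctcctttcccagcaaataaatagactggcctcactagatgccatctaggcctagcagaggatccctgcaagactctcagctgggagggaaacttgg
Cyp3a59: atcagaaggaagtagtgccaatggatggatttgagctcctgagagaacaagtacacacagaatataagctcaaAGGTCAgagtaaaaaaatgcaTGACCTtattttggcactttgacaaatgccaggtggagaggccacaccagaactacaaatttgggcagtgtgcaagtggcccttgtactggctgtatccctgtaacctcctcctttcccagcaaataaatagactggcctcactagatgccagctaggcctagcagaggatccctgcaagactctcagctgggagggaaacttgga
Cyp3a57: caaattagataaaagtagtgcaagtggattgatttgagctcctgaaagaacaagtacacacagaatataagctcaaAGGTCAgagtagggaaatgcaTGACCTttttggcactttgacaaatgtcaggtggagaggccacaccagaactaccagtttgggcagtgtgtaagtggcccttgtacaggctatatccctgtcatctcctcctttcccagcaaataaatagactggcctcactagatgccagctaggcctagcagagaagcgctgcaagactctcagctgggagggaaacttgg
The Cyp3a25 window was 95.7% identical to that of Cyp3a59 and 89.7% to that of Cyp3a57. All 3 hold AGGTCA once on each strand. Over 32851 promoter windows of the same length, 16.3% hold AGGTCA on either strand, counting each window once. Some genes have several windows, overlapping or apart, so members were counted by gene, as holding it in any window. Counts by gene can therefore exceed the share by window. AGGTCA was in 3 of 10 genes that rose, 4 of 19 that fell, 0 of 6 tested genes that were not called and 14 of 41 below the minimum. The direct repeat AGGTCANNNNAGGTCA, searched on both strands and overlapping the single element, was in 0.0152% of all windows and in none of the members' windows. A window was found for 76 of the 103 members, 35 of them tested. A match describes the letters and says nothing of binding.

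Cyp3a44 (gene ID 337924, 13 exons, chromosome 5, 145773983 to 145805874, minus strand) was listed at 1, 1 and 1 normalized reads with vehicle and at 331, 337 and 336 with T3. The 3 T3 libraries lay within a few reads of each other and far above every vehicle library. The difference was 7.39 ± 0.19 on the log2(value + 1) scale (SE), and 7.80 or 5.82 with a pseudocount of 0.5 or 5, so a fold is not given. In the same T3 libraries Cyp3a41a, 53847 bases away, was listed at 0, 1 and 0, and Cyp3a11, 48733 bases away on the other side, fell. Of the 50-base stretches of Cyp3a44 transcripts, 26.5% also occur in transcripts of other genes, 11.5% in Cyp3a41a and 10.6% in Cyp3a63-ps. Reads from those stretches could have been split or lost in counting. For Cyp3a41a the share was 98.6%, with 93.7% in Cyp3a41b, so this limit weighs more on its low values.

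Cyp3a59 (gene ID 100041449, chromosome 5, 146079258 to 146113285, plus strand) had 39, 44 and 48 normalized reads with vehicle and 206, 227 and 277 with T3. All T3 libraries lay above all vehicle libraries, 5.30-fold higher by the log2 difference of 2.41 ± 0.15 (SE, limma adjusted p = 1.31e-06). Its neighbour Cyp3a25 (gene ID 56388, 145977194 to 146009618, minus strand), a steroid hydroxylase, had 1795, 1910 and 1851 with vehicle and 3711, 3351 and 3593 with T3. That was 1.92-fold higher (0.94 ± 0.05, adjusted p = 4.5e-07), again with no overlap. The transcripts share 24.7% of the 50-base stretches of Cyp3a59 and 25.0% of those of Cyp3a25. The level of Cyp3a59 per kb of exon was 0.0236 ± 0.00216 of that of Cyp3a25 with vehicle and 0.0669 ± 0.0108 with T3 (SD, n = 3), so the pair did not keep a constant ratio.

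Cyp3a11 (gene ID 13112, chromosome 5, 145854607 to 145879854, minus strand), the mouse gene most used as a readout of the xenobiotic receptor PXR, had 4301, 4752 and 4432 normalized reads with vehicle. With T3 it had 2429, 1776 and 2391, lower than vehicle in every library. The fall was 2.06-fold (-1.04 ± 0.10, limma adjusted p = 3.79e-05). Nr1i2, the gene of PXR, rose 1.12-fold, from 1525 ± 85.9 to 1702 ± 70.0 (adjusted p = 0.0357), and a link to Cyp3a11 was not tested. Cyp3a13, the member outside the cluster, rose 1.52-fold (0.60 ± 0.06, adjusted p = 2.34e-05), from 1673 ± 134 to 2537 ± 22.2 (SD, n = 3). The ratio of Cyp3a25 to Cyp3a11 per kb of exon, chosen after the values were seen, was 0.428, 0.412 and 0.428 with vehicle and 1.57, 1.93 and 1.54 with T3. Per kb, Cyp3a25 was therefore below Cyp3a11 in all 3 vehicle libraries and above it in all 3 T3 libraries. As the ratio was chosen in this way, no p-value is given for it. The summed normalized reads of the 9 Cyp3 genes overlapped between groups, 7719 to 8536 with vehicle and 8211 to 9241 with T3, while their makeup changed.

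**Figure D2:**
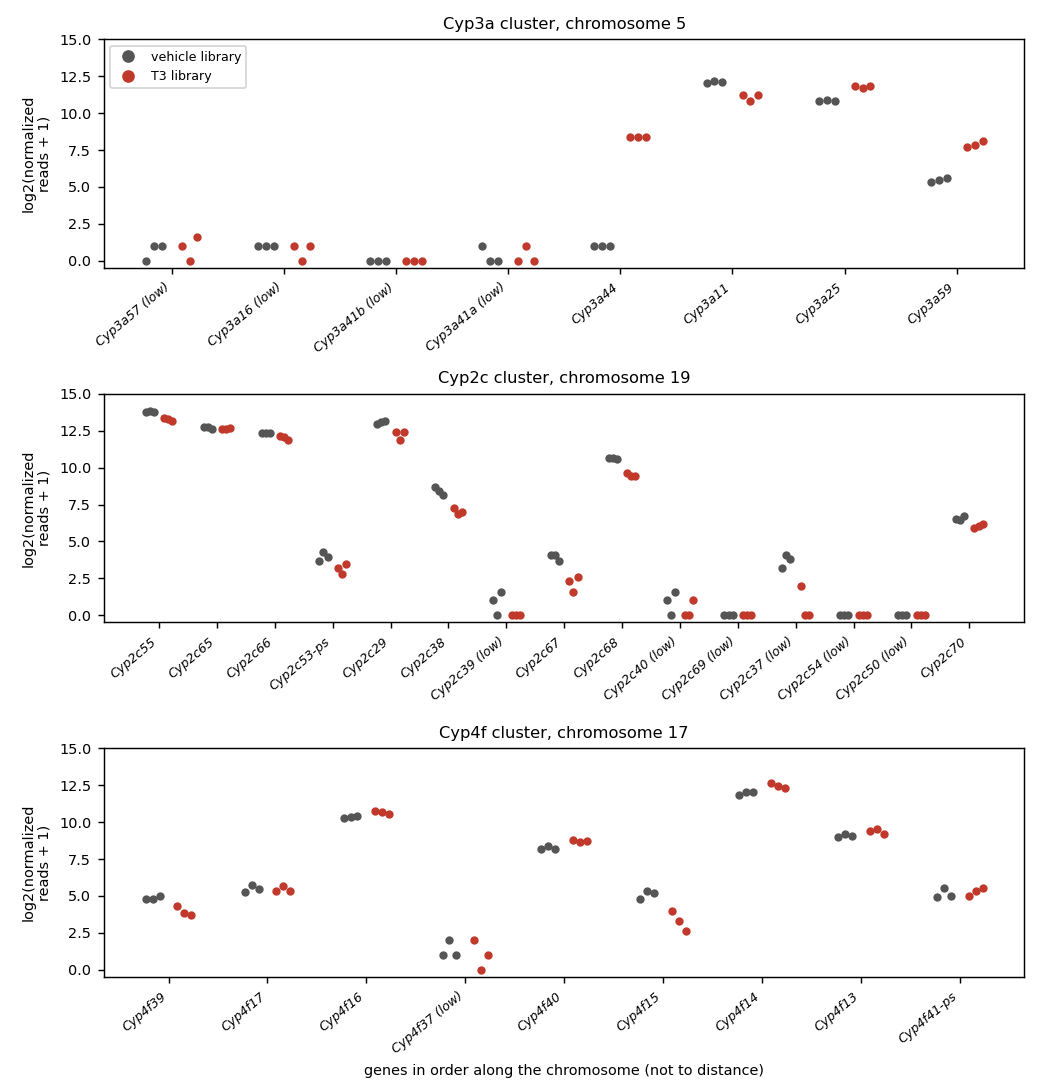
log2(normalized reads + 1) in each vehicle and T3 library for the members of the Cyp3a, Cyp2c and Cyp4f clusters, in their order along the chromosome and not to distance, with members below the minimum marked low. Genes that are higher and lower with T3 sit next to each other in the Cyp3a and Cyp4f panels, and in the Cyp2c panel 7 of the 9 tested members fell and none rose.

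P450s of sterol, bile acid and steroid hormone metabolism had 12 members in the table, and 4 reached the minimum. Of these, Cyp27a1, Cyp39a1 and Cyp17a1 rose and Cyp11a1 fell. Cyp27a1 (gene ID 104086, chromosome 1, 74713574 to 74737890, plus strand) is a mitochondrial enzyme that oxidises the side chain of cholesterol in bile acid synthesis. It had 82, 87 and 86 normalized reads with vehicle and 289, 263 and 315 with T3. Every T3 library was above every vehicle library, and the rise was 3.36-fold (1.75 ± 0.10, limma adjusted p = 1.17e-06). Cyp39a1, an oxysterol hydroxylase, had 503, 487 and 464 with vehicle and 821, 875 and 833 with T3. It rose 1.74-fold without overlap (0.80 ± 0.06, adjusted p = 5.1e-06). The other bile acid enzymes Cyp7a1, which starts the classical pathway, and Cyp8b1, which leads to cholic acid, were listed at 0 in all 6 libraries, and Cyp7b1 reached 1 normalized read in 1 library.

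Cyp17a1 (gene ID 13074, chromosome 19, 46667165 to 46673000, minus strand, 8 exons), a hydroxylase and lyase of the adrenal and gonadal steroid pathway, was listed at 0 in all 3 vehicle libraries. With T3 it had 88, 64 and 113 normalized reads, and no fold is given against a group listed at 0. None of the 50-base stretches of its transcripts was found in another gene. Cyp11a1, which cleaves the cholesterol side chain at the start of steroid synthesis, had 66, 41 and 39 with vehicle and 23, 13 and 31 with T3. The groups did not overlap, but 39 and 31 lay close. The 2.19-fold fall (-1.13 ± 0.33, limma adjusted p = 0.0181) was lost without vehicle replicate 1 (adjusted p = 0.0655), without T3 replicate 2 (0.0511) and without the mean-variance trend (0.0504).

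Other steroid-cell genes did not accompany Cyp17a1. Of the 8 markers of steroidogenic cells, Hsd3b1, Hsd3b6, Lhcgr and Mc2r were listed at 0 in every library and Nr5a1 reached 1 read in 1 library. Star, the cholesterol transporter of that pathway, was at 40.3 ± 9.61 with vehicle and 48.0 ± 2.00 with T3 and was not called. The summed marker list, which includes Cyp11a1, was 85 to 97 with vehicle and 61 to 82 with T3. The steroid enzymes Cyp11b1, Cyp11b2, Cyp19a1 and Cyp21a1 were listed at 0 throughout. Of the 6 tested genes within 100 kb of Cyp17a1, Borcs7 and As3mt rose 1.51-fold and 1.43-fold, and Sfxn2 fell by 0.41 on the log2 scale (limma adjusted p = 0.000417). Wbp1l, the nearest at 9776 bases, Cnnm2 and Arl3 were not called. Calls were common over all genes tested, at 44.8%, and a link of these neighbours to Cyp17a1 was not tested.

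The Cyp1 family oxidises polycyclic aromatic compounds and is the best known target of the aryl hydrocarbon receptor, Ahr. Its 2 tested members went in opposite directions. Cyp1a1 (chromosome 9, 57687928 to 57703824, plus strand) had 1485, 1367 and 1505 normalized reads with vehicle and 476, 361 and 587 with T3. The highest T3 library was far below the lowest vehicle library, a fall of 3.11-fold (-1.64 ± 0.14, limma adjusted p = 1.46e-05). Cyp1b1, which also oxidises estrogens, was low, at 8, 23 and 18 with vehicle and 44, 39 and 35 with T3. It rose 2.51-fold without overlap (1.33 ± 0.34, adjusted p = 0.0110). Cyp1a2, next to Cyp1a1 and mainly a liver enzyme, stayed below the minimum at 5, 1 and 3 with vehicle and 0 in each T3 library. Ahr itself was at 891 ± 64.6 and 822 ± 54.6 and was not called (adjusted p = 0.213). Tiparp, a target of Ahr that represses it, rose 2.28-fold, from 983 ± 48.0 to 2243 ± 205 (adjusted p = 9.5e-07). Ahrr, another repressor of Ahr, was at 12.7 ± 4.73 and 14.3 ± 1.53 and was not called.

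Cyp2c enzymes oxidise drugs and turn arachidonic acid into epoxides, and in these organoids they made up the largest share of P450 transcripts. Per kb of exon, Cyp2c genes held 52.6% of the summed P450 level with vehicle and 46.3% with T3. Of the 16 Cyp2c genes, 9 were tested, 7 fell and none rose. Cyp2c55, which hydroxylates arachidonic acid, had 14318, 14530 and 14111 normalized reads with vehicle and 10485, 9974 and 8981 with T3, and it fell 1.46-fold (-0.55 ± 0.06, limma adjusted p = 3.81e-05). Cyp2c29, an epoxygenase, had 8132, 8755 and 9133 with vehicle and 5452, 3688 and 5449 with T3. It fell 1.81-fold (-0.86 ± 0.13, adjusted p = 0.000543), and in both genes every T3 library lay below every vehicle library.

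Falls of more than 2-fold were found in 3 other Cyp2c genes. Cyp2c68 had 1597, 1594 and 1518 normalized reads with vehicle and 788, 701 and 707 with T3, 2.15-fold lower (-1.10 ± 0.06, limma adjusted p = 5.3e-07). Cyp2c38, another arachidonic acid oxidase, had 404, 345 and 279 with vehicle and 155, 115 and 124 with T3, 2.59-fold lower (-1.37 ± 0.15, adjusted p = 7.58e-05). Neither gene overlapped between groups. Cyp2c67 was near the minimum, at 16, 16 and 12 with vehicle and 4, 2 and 5 with T3 (-1.79 ± 0.38). Its size depended on the pseudocount, with -1.19 at a pseudocount of 5, and 52.8% of its 50-base stretches occur in other genes, as do 43.3% of those of Cyp2c68.

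Among the other Cyp2c genes, Cyp2c66 fell 1.25-fold (-0.32 ± 0.06, limma adjusted p = 0.00272). Cyp2c70, which makes muricholic acids in mouse liver, fell 1.46-fold (-0.54 ± 0.14, adjusted p = 0.0123), a call lost without T3 replicate 1 (adjusted p = 0.0505). Cyp2c65, next to Cyp2c66 and sharing 20.2% of its 50-base stretches with it, was not called. Its means were 6597 ± 384 and 6303 ± 176 (SD, n = 3), and the 95% interval of its log2 difference ran from -0.17 to 0.04 (adjusted p = 0.309). The pseudogene Cyp2c53-ps was lower in all 3 T3 libraries, at 8, 6 and 10 against 12, 18 and 14, and missed the threshold (adjusted p = 0.0624). With equal column totals it passed (0.0472), as it did with upper-quartile scaling (0.0485), without the mean-variance trend (0.0282) and without T3 replicate 3 (0.0480). The 15 Cyp2c genes of the cluster on chromosome 19 (39007019 to 40187286) include all 9 tested ones.

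**Figure D3:**
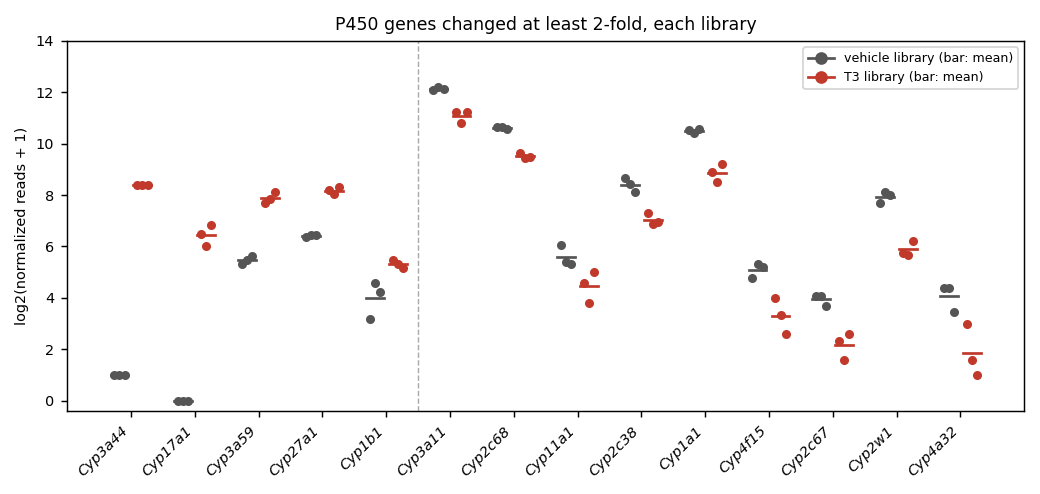
log2(normalized reads + 1) in each library for the 14 P450 genes with a called difference of at least 2-fold, with a bar at each group's mean and a dashed line between the 5 that rose and the 9 that fell. The genes were chosen by that difference, so the separation of vehicle and T3 points is no further support. The vehicle points of Cyp17a1 lie at 0.

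The remaining Cyp2 genes gave 5 falls and 1 rise among 9 tested, Cyp2r1 not counted. Cyp2w1 (chromosome 5, 139352617 to 139357033, plus strand), known from fetal gut and colon tumours, had 203, 276 and 257 normalized reads with vehicle and 53, 50 and 74 with T3. It fell 4.13-fold with no overlap (-2.05 ± 0.17, limma adjusted p = 1.27e-05). Cyp2b10, the usual readout of the xenobiotic receptor CAR, had 6460, 7123 and 7923 with vehicle and 5198, 3728 and 4740 with T3. It fell 1.58-fold without overlap (-0.66 ± 0.11, adjusted p = 0.00109). Nr1i3, the gene of CAR, fell 1.29-fold, from 360 ± 56.4 to 277 ± 23.9 (adjusted p = 0.0316), and a link to Cyp2b10 was not tested. Cyp2u1, a hydroxylase of long-chain fatty acids, rose 1.98-fold, from 332 ± 35.3 to 659 ± 68.4 (0.98 ± 0.10, adjusted p = 4.12e-05). Its exons overlap those of an opposite-strand gene model, LOC100503594, by 548 bases.

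The 2 tested Cyp2j genes both fell. Cyp2j6, an abundant gut form, had 8013, 7865 and 7819 normalized reads with vehicle and 5460, 4813 and 5344 with T3, 1.52-fold lower (-0.60 ± 0.05, limma adjusted p = 9.8e-06). Cyp2j9 had 286, 273 and 268 with vehicle and 163, 128 and 184 with T3, 1.75-fold lower (-0.81 ± 0.13, adjusted p = 0.000748). Neither gene overlapped between groups. In the Cyp2d subfamily, which oxidises many basic drugs, Cyp2d26 had 3030, 3428 and 3419 with vehicle and 2467, 2379 and 1824 with T3, 1.49-fold lower (-0.58 ± 0.10, adjusted p = 0.00147). Cyp2d22 had 57, 75 and 71 with vehicle and 73, 96 and 50 with T3 and was not called (0.07 ± 0.23, adjusted p = 0.833).

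Cyp2s1, an epithelial P450 outside the liver, had 1869, 2172 and 2083 normalized reads with vehicle and 2896, 3030 and 1711 with T3. T3 replicate 3 lay below all vehicle libraries and the other T3 libraries above them, and the gene was not called (0.28 ± 0.18, limma adjusted p = 0.245). Without T3 replicate 3 the difference was 0.54 with an adjusted p of 0.000156. Cyp2e1, the ethanol oxidase, was low, at 15, 11 and 23 with vehicle and 5, 13 and 7 with T3. It missed the threshold (adjusted p = 0.0884) and passed it without T3 replicate 2 (-1.26, adjusted p = 0.0359).

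Cyp4 enzymes hydroxylate fatty acids, leukotrienes and related lipids at the chain end. Of 22 Cyp4 genes, 11 were tested, and 4 rose, 4 fell and 3 were not called. The rises were all in the Cyp4f cluster of chromosome 17 (32452723 to 32965716). Cyp4f14, which inactivates leukotrienes and degrades vitamin E, had 3626, 4289 and 4218 normalized reads with vehicle and 6317, 5562 and 5050 with T3. It rose 1.39-fold without overlap (0.48 ± 0.09, limma adjusted p = 0.00145). Cyp4f16 had 1240, 1283 and 1338 with vehicle and 1708, 1680 and 1531 with T3, 1.27-fold higher (0.35 ± 0.06, adjusted p = 0.000698). Cyp4f40 rose 1.40-fold (adjusted p = 0.000965), from 303 ± 22.7 to 424 ± 20.0 (SD, n = 3). Cyp4f13 rose 1.22-fold (0.29 ± 0.09, adjusted p = 0.0234), a call lost in 7 of the alternative settings, with adjusted p from 0.0580 to 0.0886.

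In the same cluster Cyp4f15 and Cyp4f39 fell. Cyp4f15 had 26, 39 and 36 normalized reads with vehicle and 15, 9 and 5 with T3, 3.47-fold lower (-1.79 ± 0.36, limma adjusted p = 0.00309). Cyp4f39, which acts on very long fatty acids of the skin barrier, fell 1.86-fold from 27.7 ± 2.89 to 14.7 ± 3.79 (adjusted p = 0.0162). This call was lost without vehicle replicate 3 (adjusted p = 0.0608) and without T3 replicate 2 (0.0503). Cyp4f17 and the pseudogene Cyp4f41-ps, between 29 and 52 reads in every library, were not called. The genes of this cluster that rose had means of at least 303 normalized reads in each group, and those that fell had at most 33.7.

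Outside it, Cyp4b1, which oxidises fatty acids and some toxins, fell 1.92-fold, from 468 ± 1.53 to 244 ± 5.86 (-0.94 ± 0.07, limma adjusted p = 4.4e-06). Cyp4a32, its neighbour on chromosome 4, had 20, 20 and 10 normalized reads with vehicle and 7, 2 and 1 with T3 (-2.22 ± 0.54). With a pseudocount of 5 its difference was -1.41, and 46.8% of its 50-base stretches occur in other genes. The other Cyp4a genes, targets of the fatty acid receptor Ppara in liver, never exceeded 1 read, and Ppara was not called. Cyp4v3, a fatty acid hydroxylase, was at 1287 ± 22.0 and 1359 ± 147 and was not called (adjusted p = 0.435).

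Vitamin D and retinoic acid P450s were nearly silent. Cyp2r1, which adds the hydroxyl group that starts vitamin D activation, was the 1 tested member of 6, at 54, 37 and 33 normalized reads with vehicle and 35, 39 and 44 with T3. It was not called (-0.04 ± 0.22, limma adjusted p = 0.890), and its 95% interval, -0.53 to 0.45, leaves room for moderate changes. Cyp24a1 and the retinoic acid hydroxylases Cyp26a1, Cyp26b1 and Cyp26c1 reached at most 2 reads. Cyp20a1, an orphan P450 without an established substrate, had 746, 803 and 780 with vehicle and 737, 776 and 694 with T3. It was not called (adjusted p = 0.329), with an interval of -0.22 to 0.06.

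The 61 members below the minimum included 28 listed at 0 in every library, 24 whose highest value was 1 to 3, and 9 that went above 3, to at most 18. They made up 8 of 10 Cyp2d, 5 of 7 Cyp2j, 7 of 16 Cyp2c, 12 of 17 other Cyp2, 11 of 22 Cyp4, 4 of 9 Cyp3, 8 of 12 sterol and steroid, 5 of 6 vitamin D and retinoic acid, and 1 of 3 Cyp1 genes. Just outside the minimum were Cyp27b1 with 9, 6 and 11 normalized reads with vehicle and 6, 9 and 7 with T3, Cyp2c37 with 8, 16 and 13 and 3, 0 and 0, and Cyp2d10 with 7, 18 and 8 and 6, 5 and 4. Just inside were Cyp4a32, Cyp2c53-ps and Cyp2c67, whose values are given above.

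Levels of different P450 genes can be compared per kb of exon, within a limit. Reads from shared 50-base stretches could have been lost in counting. The share was 20.6% for Cyp2c65 and 24.0% for Cyp2c66. It was 0.514% for Cyp2c55, 2.08% for Cyp2c29 and 9.69% for Cyp2b10, so the order below could be affected. With vehicle the highest levels were those of Cyp2c55 at 7199 ± 105, Cyp2c29 at 4856 ± 283, Cyp2b10 at 3829 ± 391, Cyp2c65 at 3399 ± 198 and Cyp2c66 at 3259 ± 11.2 normalized reads per kb (SD, n = 3). Libraries of Cyp2b10 and Cyp2c65 overlapped, as did those of Cyp2c65 and Cyp2c66, so these neighbours did not differ beyond their spread. With T3, Cyp2c55 was still at the top at 4934 ± 384, and Cyp2c65, which was not called, came next at 3247 ± 90.9. Cyp2c29 at 2723 ± 570, Cyp2c66 at 2623 ± 256 and Cyp2b10 at 2433 ± 402 followed, overlapping each other, and Cyp2b10 also overlapped Cyp4f14, the next at 2345 ± 265. The top 5 genes held 59.8% of the summed level per kb with vehicle and 52.7% with T3, where the fifth was not separated from the next.

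The summed level per kb over all 103 members was 36517 to 38469 with vehicle and 29063 to 32422 with T3, lower in every T3 library. In normalized reads the sums were 75194 to 78980 and 60745 to 67605, which is 0.263% to 0.280% of all normalized reads with vehicle and 0.203% to 0.226% with T3. Cyp2c sums were 36649 to 37553 with vehicle and 25154 to 27764 with T3, whereas Cyp4 sums were 7577 to 8443 with vehicle and 9217 to 11041 with T3. The sums of the sterol and steroid members were 593 to 654 with vehicle and 1220 to 1293 with T3, a small part of the family. Column totals over all genes were 28197080 to 28611883 with vehicle and 29510422 to 29974091 with T3.

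**Figure D4:**
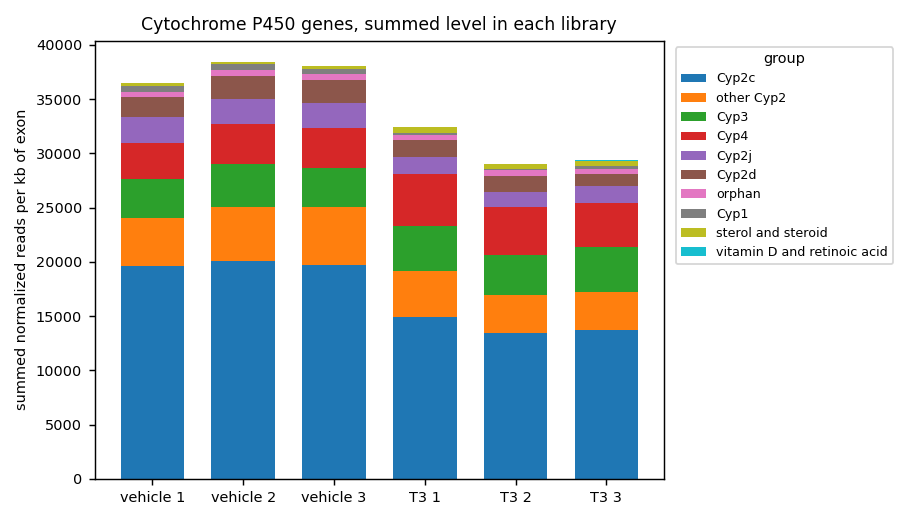
Normalized reads per kb of exon summed over all 103 P450 genes in each library, stacked by role group from 0. Each T3 bar is shorter than each vehicle bar, 29063 to 32422 against 36517 to 38469, and the Cyp2c block is the tallest in all 6 bars.

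P450s work with electron donors and a supply of heme. The median absolute log2 difference was 0.17 in the electron donors and helpers and 0.15 in heme metabolism. It was 0.81 in the P450 members and 0.19 in all genes tested. Of 10 tested redox partners and heme-binding helpers, 5 fell and none rose. Over all genes tested, 44.8% were called, with 24.0% higher and 20.8% lower. The median log2 difference was -0.10 in these partners and helpers, beside -0.01 for all genes. Whether this list differed from all genes was not tested. Por, the reductase that serves the microsomal P450s, was at 5888 ± 276 with vehicle and 6187 ± 793 with T3 and was not called (limma adjusted p = 0.562). The electron carrier Cyb5a fell 1.18-fold (adjusted p = 0.00239), Pgrmc2 and Pgrmc1, heme-binding membrane proteins, fell 1.15-fold and 1.12-fold, and Fdxr, which feeds electrons to the mitochondrial P450s, fell 1.20-fold. The call of Fdxr was lost without vehicle replicate 2 and without T3 replicate 2 (adjusted p = 0.0832 and 0.0777). In heme metabolism 3 of 13 tested genes rose and 2 fell, 38.5% called beside the same 44.8%, with a median of 0.01. Alas1, which starts heme synthesis, rose 1.17-fold (adjusted p = 0.00158), and Alad, the following step, fell 1.35-fold (adjusted p = 0.000158). Hmox1, which breaks heme down, rose 1.43-fold (adjusted p = 0.0252), a call lost in 6 of the alternative settings, and Blvrb fell 1.38-fold (adjusted p = 0.000338).

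Receptors and factors that control P450 genes were tested as a list of 24. Of 23 that met the minimum, 11 rose and 3 fell, 60.9% called beside 44.8% of all genes tested. Their median was 0.14, and with equal column totals 6 rose. Ppard, a fatty acid receptor, rose 10.9-fold, from 1003 ± 35.0 to 10936 ± 414 (limma adjusted p = 7.3e-11). Hnf4g, an intestinal nuclear factor, rose 1.53-fold (adjusted p = 2.07e-06), and the oxysterol receptor Nr1h3 fell 1.41-fold (adjusted p = 7.36e-05). Of the P450 genes that the symbol rule left out, Cyp51, a cholesterol synthesis enzyme, rose 1.25-fold (adjusted p = 0.00120), Tbxas1 was not called and Ptgis was below the minimum.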

How the data were processed

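RNA of 6 directional libraries was sequenced, 3 per group. The submitters' processing notes name STAR, Subread and DESeq2 but no versions. For the handling of strand, no setting was given in the sources used here. Coordinates are of mm10 (GRCm38), per the file headers. The sample columns deposited by the authors hold whole numbers that are scaled reads per gene, a score rather than a raw count, since the authors' mean column equalled the mean of the 6 columns to within 0.833 in every gene. Log2 fold changes, p-values and adjusted p-values of the authors' own comparison are deposited in the same table and were used only for the sentences that name it. A second deposited table, a subset of genes, was not used.

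Genes with 10 or more normalized reads in 3 or more of 6 libraries were tested with limma 3.58.1 in R 4.3.3 (statmod 1.5.0) on log2(value + 1), with a mean-variance trend and Benjamini-Hochberg adjustment, called at an adjusted p under 0.05. Fold changes are on that scale and understate those of low genes. Errors with a log2 difference are SE, and errors of levels are SD with n = 3. The script was tested on simulated data. Replicates differed from each other (mean chi-square per gene 4.89 to 14.9), so none was counted as a duplicate. On scaled values this figure cannot be set against sampling noise.

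The members and gene lists were chosen with earlier results of these data known. All tested members are named. Per-library values are given for called members with at least 2-fold change and the 2 highest of each role. Up to 4 called genes are named per partner list, and Nr1i2 and Nr1i3 were added beside Cyp3a11 and Cyp2b10. The tested neighbours of Cyp17a1 were named after their values were seen. Levels per kb use the exon length in the deposited table. Shared sequence was counted as exact 50-base stretches in GENCODE vM21 transcripts, and promoter windows are from RefSeq. As alternatives, the scaling, filter, pseudocount, threshold and variance model were changed, a replicate block was added, and each library was left out. The depth in raw reads is not given by rounded, scaled values, so no counting intervals are given.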

Additional observations from a re-analysis of the deposited data

How the results depend on the processing

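Of the 32 called members, 28 kept their call and direction at an adjusted p under 0.05 in all settings in which they were tested, and 4 (Cyp11a1, Cyp2c70, Cyp4f13 and Cyp4f39) lost it in at least 1. The 28 include Cyp17a1, Cyp3a44, Cyp2c67 and Cyp4a32, which had to differ to be tested, so their stability is no further support. No called member reversed, and 3 of the 10 uncalled members were called in some setting. The count of members that rose ranged from 11 to 14 and of those that fell from 14 to 22 over all settings, a threshold of 0.01 included. A minimum of 50 normalized reads left 31 members, with 12 higher and 14 lower, of which the Cyp1 genes had 0 higher, Cyp4 had 1 lower and the sterol and steroid genes had 0 lower. Without a filter, 2 Cyp1 genes were lower. Without the mean-variance trend, 0 sterol and steroid genes were lower. In heme metabolism, 5 genes fell instead of 2 with upper-quartile scaling or equal column totals, and 1 rose instead of 3 with no filter or without the trend. Among the sensors, 6 rose instead of 11 with either scaling. Both scalings shifted the median of all genes by less than 0.1.

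Leaving out each library in turn gave 7 to 11 sensors higher and 1 to 4 heme genes higher, both lowest without vehicle replicate 2 and without T3 replicate 1. It also gave 0 to 2 redox partners higher, 1 to 2 other Cyp2 genes higher and 0 to 1 sterol and steroid genes lower. Over the same omissions the differences of 4 uncalled members changed sign, from -0.15 to 0.31 for Cyp2d22, -0.19 to 0.16 for Cyp2r1, -0.15 to 0.087 for Cyp4f17 and -0.015 to 0.12 for Cyp4v3. The cause of these shifts was not tested. Replicate numbers are shared between the groups, but same-numbered libraries did not deviate together (Pearson r over genes -0.0701, 0.0278 and -0.0568). Differently numbered libraries gave -0.0476 to 0.0946. This check weighs noisy low genes as much as high ones, so it cannot exclude a pairing by number. With a replicate block, 13 members were higher and 19 lower. Low genes were measured less well, with a standard error of 0.05 on the log2 scale for Cyp2c65 and 0.22 for Cyp2r1, so small changes in low members were not detectable.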
